A study of Sus scrofa with 12 samples.

Results

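Expression of 5 genes of B cells and plasma cells, CD79A, CXCR5, CD40, IRF4 and SDC1, was followed over 12 libraries of pig blood cells. They were chosen by name among 7480 gene symbols with a value in each library, and all 5 passed into the tests, since no gene was filtered out. Per the labels the libraries came from peripheral blood mononuclear cells (PBMC, the lymphocytes and monocytes of blood) of crossbred piglets (Duroc × Landrace × Yorkshire) aged 4 weeks. The 3 groups, each of 4 libraries, were untreated controls, cells given Salmonella (called Salmonella Typhi in the series text), and cells given Salmonella together with a sponge for miR-124. A sponge is a reagent made to bind a microRNA. Cells were collected 12 h after treatment. No group was labelled as given the sponge without Salmonella, or a control sponge. Effects of binding miR-124 and of adding a sponge as such therefore cannot be told apart. The design mentions 20 piglets, 10 male and 10 female. Which animal gave which library is not in the labels. The p-values below therefore rest on the spread among these 12 samples alone, and that spread may be technical. The titles of the sponge libraries name miR-124 without the word sponge.

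B cells carry an antigen receptor whose signal passes through the CD79A and CD79B chains, and they find lymphoid follicles through the chemokine receptor CXCR5. Contact with T cells reaches them through CD40, a receptor of the TNF receptor family that monocytes and dendritic cells carry too. Strong activation raises the transcription factor IRF4, which is required for the change from B cell to plasma cell and also acts in activated T cells and some dendritic cells. Plasma cells, which secrete antibody, lose most B cell surface proteins and display syndecan-1, the heparan sulfate proteoglycan encoded by SDC1. Epithelial cells make syndecan-1 as well.

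With Salmonella, CD79A fell by 2.78 log2 units and CXCR5 fell by 2.47, and both were higher again with the sponge. CD40 went the other way, rising by 1.86 log2 units with Salmonella and standing lower with the sponge. IRF4 reached its highest group mean with the sponge, 1.38 log2 units above control, while its difference between Salmonella and control did not pass the test. SDC1 lay at or near the level of genes taken as silent in blood in all 12 libraries.

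The deposited values were on a log scale, read as log2, and the number of reads behind each is unknown. Library medians ran from 5.11 to 5.31. A set of 182 symbols taken as silent in blood (olfactory and taste receptors, keratin-associated proteins and beta-defensins) had a mean of 4.62 and a 95th percentile of 5.24, and these were used as the background level. Pig gene tables held 53 of these symbols. Exact ties between genes made up 65.1% to 71.4% of each sponge column and at most 0.0802% of any other, so treatment and this feature of the columns cannot be told apart. Control libraries held markers of the cells that PBMC contain, such as CD72 of B cells at 7.56 ± 0.70, CD2 of T cells at 11.44 ± 0.33, KLRB1 of NK cells at 12.53 ± 0.41 and FCN1 of monocytes at 13.51 ± 0.05 (SD, n = 4). CD3D, a chain of the T cell receptor complex, was at 4.29 ± 0.20, under the background, while its partner CD3E was at 7.79 ± 0.10. CD74, an abundant gene of B cells and monocytes, was at 6.47 ± 0.61. The level of a gene in the table thus does not always follow what is known of its abundance, and a rank or a difference in level between genes describes the table only.

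CD79A (chromosome 6, 49996116 to 49999294 in Sscrofa11.1, the build named in the submitters' notes) stood at 12.55, 11.69, 11.88 and 11.66 log2 units in control replicates 1 to 4. It stood at 9.55, 8.92, 9.09 and 9.12 in the Salmonella libraries. With the sponge it was at 11.36, 11.03, 11.11 and 11.27. The 3 groups did not overlap: every Salmonella library lay below every sponge library, and every sponge library below every control library. The same order was seen in its rank among all values of a library, which does not depend on the scale. CD79A stood above 97.8% to 99.1% of genes in control, above 87.4% to 92.1% with Salmonella and above 97.2% to 97.7% with the sponge.

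CD79A fell by 2.78 ± 0.20 log2 units with Salmonella (SE, 6.85-fold lower, adjusted p = 5.9e-07 by limma over all 7480 genes). The sponge libraries were 2.03 ± 0.20 above the Salmonella libraries (4.07-fold, adjusted p = 3.2e-05). They remained below control, with a difference of -0.75 ± 0.20 (1.68-fold lower, adjusted p = 0.00766). Leaving out any library of a comparison ended none of these 3 calls.

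CXCR5 (chromosome 9, 46134243 to 46146638) was at 9.77, 8.71, 8.83 and 8.84 in control libraries, at 6.76, 6.28, 6.74 and 6.49 with Salmonella and at 8.05, 8.06, 8.72 and 8.48 with the sponge. Salmonella libraries were below all others, and sponge replicate 3 overlapped the control range. Control replicate 1, the highest for CXCR5, was also the highest control library for CD79A. CXCR5 fell by 2.47 ± 0.24 with Salmonella (5.55-fold lower, adjusted p = 4.6e-06). With the sponge it was 1.76 ± 0.24 higher than with Salmonella alone (3.39-fold, adjusted p = 3.2e-04). The difference between sponge and control was -0.71 ± 0.24 (adjusted p = 0.0287). That call ended without control replicate 1 (-0.47, adjusted p = 0.0995) or without sponge replicates 1 or 2 (adjusted p = 0.0726 and 0.0785). CXCL13, the ligand of CXCR5, was near background in each group, with means of 4.49, 4.82 and 4.55, and was not called in any comparison.

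**Figure D1:**
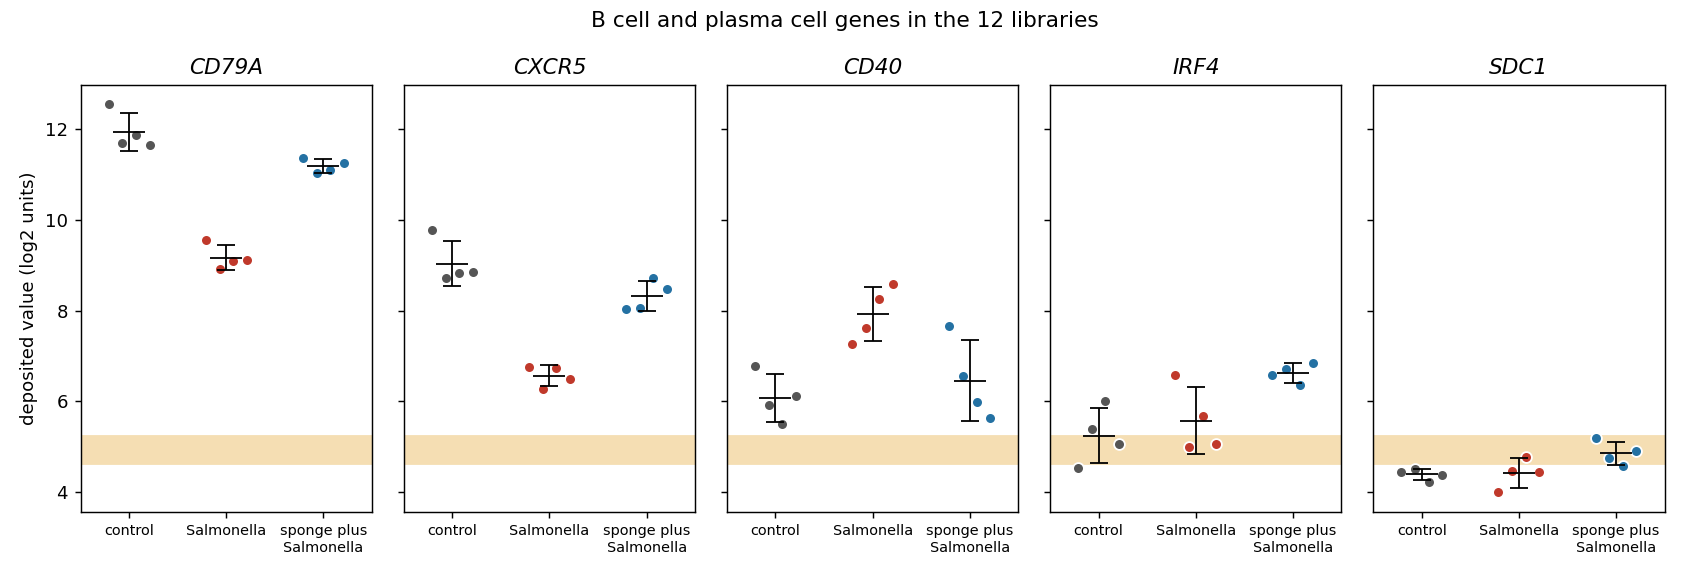
Deposited values (log2 units, y axis) of the 5 genes in the control, Salmonella, and sponge plus Salmonella libraries. Points are the 4 libraries of a group in order of replicate number, bars are the mean ± SD, and the shaded band runs from the mean (4.62) to the 95th percentile (5.24) of symbols taken as silent in blood. CD79A and CXCR5 dip with Salmonella, CD40 peaks there, IRF4 is tight and high with the sponge, and SDC1 lies in or under the band.

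CD40 (chromosome 17, 48286116 to 48298188) was at 6.78, 5.91, 5.50 and 6.11 in control libraries. It was at 7.27, 7.63, 8.25 and 8.58 in the Salmonella libraries, above every control library. In the sponge libraries it spread from 7.66 in replicate 1 through 6.56 and 5.98 to 5.64 in replicate 4. Replicate 1 lay within the Salmonella range, and replicates 2 to 4 lay within the control range. The rise with Salmonella was 1.86 ± 0.41 (3.62-fold, adjusted p = 0.00295), and leaving out any single library kept the call.

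With the sponge, CD40 was lower than with Salmonella alone by a difference of -1.47 ± 0.41 (2.78-fold lower, adjusted p = 0.0179), although the groups overlapped. This call ended without sponge replicates 3 or 4 or Salmonella replicates 3 or 4 (differences of -1.20 to -1.37, adjusted p = 0.0509 to 0.0596). Against control the sponge libraries differed by 0.38 ± 0.41, with a 95% interval from -0.49 to 1.26 (adjusted p = 0.472). Without sponge replicate 1 this difference was -0.02 (adjusted p = 0.976), so the sign of that value rests on replicate 1.

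IRF4 (chromosome 7, 133358 to 149609) was at 4.53, 5.39, 5.999 and 5.06 in control libraries and at 6.58, 4.99, 5.69 and 5.05 with Salmonella. With the sponge it was at 6.58, 6.72, 6.36 and 6.85. The control and Salmonella values were spread over 1.47 and 1.58 log2 units, and 2 of 4 libraries in each were under the 95th percentile of the silent set. The sponge libraries spanned 0.49 and were all above every control library, and Salmonella replicate 1 lay inside their range. The SD was 0.62 in control, 0.74 with Salmonella and 0.21 with the sponge, a difference in spread that was not tested.

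For IRF4, Salmonella and control differed by 0.33 ± 0.36, with an interval from -0.44 to 1.10 (adjusted p = 0.514). Without Salmonella replicate 1 the difference was -0.0023 (adjusted p = 0.995). The sponge libraries were 1.38 ± 0.36 above control (2.60-fold, adjusted p = 0.00752), and this call held without any single library (adjusted p = 0.00322 to 0.0281). They were 1.05 ± 0.36 above the Salmonella libraries (2.07-fold, adjusted p = 0.0457). That second call was close to the threshold. It ended without each of 7 of the 8 libraries (all 4 sponge replicates and Salmonella replicates 2, 3 and 4, adjusted p = 0.0605 to 0.129). Without Salmonella replicate 1 the difference was 1.38 (adjusted p = 0.00578).

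SDC1 (chromosome 3, 117987585 to 118011886) was at 4.44, 4.51, 4.23 and 4.38 in control libraries, all under the background of 4.62. It was at 3.99, 4.47, 4.77 and 4.45 with Salmonella and at 5.19, 4.76, 4.57 and 4.90 with the sponge. None of the 12 values reached 5.24, the 95th percentile of the silent set. Salmonella and control differed by 0.03 ± 0.15 (interval -0.29 to 0.35, adjusted p = 0.905). The sponge libraries were 0.43 ± 0.15 above Salmonella (adjusted p = 0.0492) and 0.46 ± 0.15 above control (adjusted p = 0.0247).

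Values at the silent level give no usable size for the SDC1 differences. The calls of SDC1 were also unsteady. The call against Salmonella ended without sponge replicates 1, 2 or 4 or Salmonella replicates 1, 2 or 4 (0.29 to 0.46, adjusted p = 0.0634 to 0.135). The call against control ended without control replicates 3 or 4 or sponge replicate 1 (0.35 to 0.46, adjusted p = 0.0513 to 0.0707). In the silent set itself, 7 of 182 symbols differed upward by at least as much as SDC1 between sponge and Salmonella, and 9 of 182 between sponge and control. Of these 182 symbols, 8 were called higher and 18 lower between Salmonella and control, and 9 and 19 between sponge and Salmonella. Between sponge and control 8 were called higher and 37 lower. A call alone therefore does not set a gene at this level apart from genes taken as silent. In each sponge library, between 3 and 14 other genes had exactly the value of SDC1.

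Between Salmonella and control 3 of the 5 genes were called, where 33.6% of all genes were called. The 1 higher gene stood beside 15.7% of all genes called higher and the 2 lower genes beside 17.9% called lower. Between sponge and Salmonella 5 of 5 were called against 25.0% of all genes, 4 of them higher (11.9% of all genes) and 1 lower (13.2%). Between sponge and control 4 of 5 were called against 40.9% of all genes, 2 higher (17.9%) and 2 lower (23.0%). Groups without overlap were seen for 3 genes with Salmonella (35.6% of all genes), of which 1 was higher (15.7%) and 2 lower (19.9%). Between sponge and Salmonella they were seen for 2 genes, both higher (23.8% of all genes, 10.6% higher). Between sponge and control they were seen for 3 genes (39.7%), 2 higher (17.3%) and 1 lower (22.5%). The genes were picked with earlier results of these data known and the comparisons share libraries, so these shares carry little weight. With Salmonella the calls over all genes split into 1175 higher and 1338 lower, and centring each library on its median changed this to 965 and 1778. For sponge against control, 1336 higher and 1721 lower became 1062 and 2569. Centring on the silent mean, chosen after seeing the data, tilted the split the other way, to 1655 higher and 1276 lower for sponge against control. For sponge against Salmonella the same centring turned 888 higher and 985 lower into 1136 and 794, so the balance of higher and lower calls depends on the scaling.

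**Figure D2:**
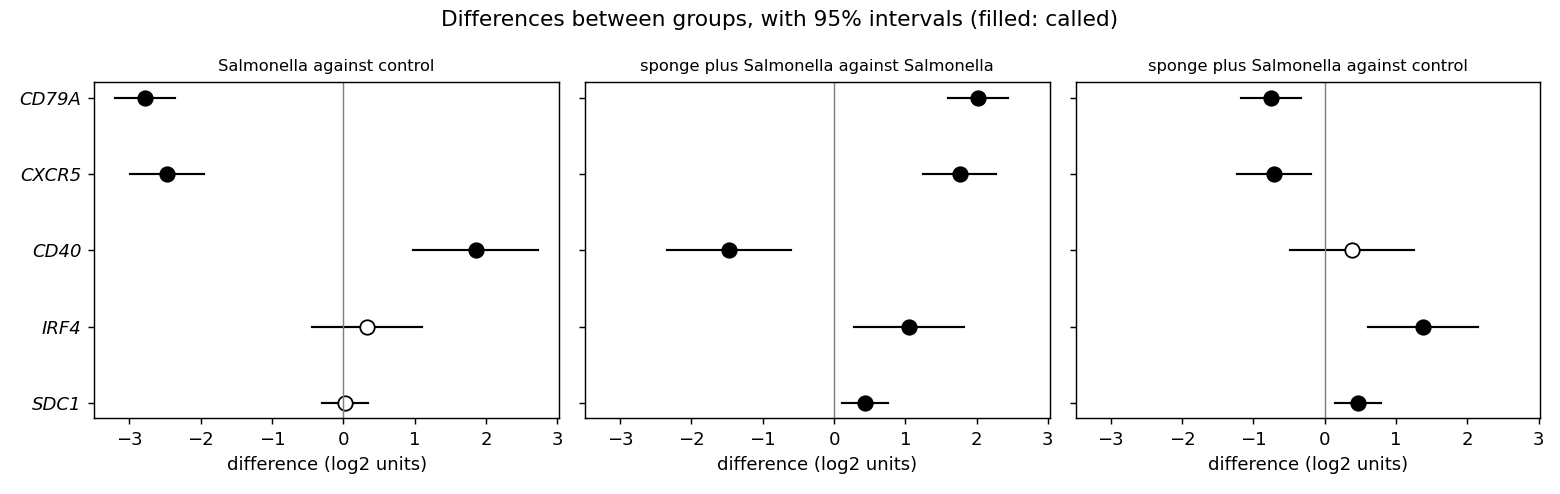
Differences between groups (log2 units, x axis) for the 5 genes in the 3 comparisons. Points are fitted differences, lines their 95% intervals, and filled points have an adjusted p below 0.05. CD79A and CXCR5 lie to the left of 0 with Salmonella (-2.78 and -2.47) and CD40 to the right (1.86), and the signs are opposite when the sponge is compared with Salmonella.

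In mixed blood cells, fewer cells of a type and less RNA per cell cannot be told apart. Markers of several other cell types moved in the same comparisons. The counts with Salmonella stand beside 15.7% of all genes called higher and 17.9% called lower. Of 14 T cell markers, 13 were lower with Salmonella and 0 higher, and their mean fell from 9.09 ± 0.14 to 7.75 ± 0.22 and stood at 8.61 ± 0.31 with the sponge. Of 9 monocyte markers, 7 were higher with Salmonella and 0 lower, and their mean went from 8.15 ± 0.26 to 9.86 ± 0.08 and stood at 9.10 ± 0.27 with the sponge. For T cell markers the library means ran from 8.97 to 9.28 in control, from 7.56 to 8.04 with Salmonella and from 8.33 to 8.93 with the sponge. Those of monocyte markers ran from 7.80 to 8.44, from 9.78 to 9.96 and from 8.79 to 9.37. The median change with Salmonella was -1.41 over T cell markers and 1.68 over monocyte markers, against -0.02 over all genes. Of 6 dendritic cell markers, cells that can carry CD40 and IRF4, 4 were lower with Salmonella and 0 higher, with means of 7.04 ± 0.20 in control, 5.81 ± 0.18 with Salmonella and 6.16 ± 0.13 with the sponge. Among 6 NK cell markers 4 were lower and 0 higher with Salmonella. Among 7 platelet markers 0 were lower and 5 higher (3 without any of 4 libraries, control replicates 2 and 4 and Salmonella replicates 3 and 4). The 7 neutrophil markers showed no shared direction, with 1 lower and 2 higher (1 without control replicates 1 or 3 or Salmonella replicate 4). The part of these cell markers in the results for CD79A, CXCR5, CD40 and IRF4 was examined only by the scaling that follows.

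Each library was therefore also centred on the mean of 1 marker list, which gives the change of a gene relative to that list. The median of all genes then moved to 1.32 (T cell markers) or -1.73 (monocyte markers) with Salmonella, and to -0.90 or 0.72 between sponge and Salmonella. Relative to T cell markers, CD79A was lower with Salmonella by a difference of -1.44 ± 0.26 (adjusted p = 1.4e-05) and CXCR5 by -1.14 ± 0.27 (adjusted p = 3.7e-04). Both were higher with the sponge than with Salmonella on this scale, by 1.17 ± 0.26 (adjusted p = 3.7e-04) and 0.90 ± 0.27 (adjusted p = 0.00429). Between sponge and control the T-relative differences were -0.27 ± 0.26 for CD79A (adjusted p = 0.417) and -0.23 ± 0.27 for CXCR5 (adjusted p = 0.507). CD79A and CXCR5 therefore changed by more than the mean T cell marker with Salmonella. Their shortfall in the sponge libraries was not distinguishable from the mean change of the T cell markers. The T cell list was uneven. Single T cell markers changed by -2.08 to 0.23 with Salmonella and differed by -1.65 to 1.04 between sponge and control. The list includes CD3D, whose control and Salmonella means of 4.29 and 4.53 were under the background.

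Relative to monocyte markers, the rise of CD40 with Salmonella was 0.14 ± 0.35 (adjusted p = 0.693), and its difference between sponge and Salmonella was -0.71 ± 0.35 (adjusted p = 0.0690). The change of CD40 was thus not distinguishable from the mean change of the monocyte markers in either comparison. That list was uneven. Single monocyte markers changed by 0.39 to 3.10 with Salmonella and by -1.89 to 0.42 between sponge and Salmonella. Which cells carried the CD40 signal was not tested. Relative to T cell markers, IRF4 was 1.67 ± 0.37 higher with Salmonella than in control (adjusted p = 1.3e-04), and it was 0.19 ± 0.37 higher with the sponge than with Salmonella (adjusted p = 0.630). Relative to monocyte markers, IRF4 was lower with Salmonella (-1.38 ± 0.34, adjusted p = 2.2e-04) and 1.81 ± 0.34 higher with the sponge than with Salmonella (adjusted p = 2.9e-05). IRF4 was not called between Salmonella and control on the deposited scale (0.33 ± 0.36). Its opposite signs there on these scales thus mostly carry the shift of the reference lists. The median of all genes moved likewise, to 1.32 and -1.73. SDC1, at the silent level, moves on these scales only as the reference lists move.

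**Figure D3:**
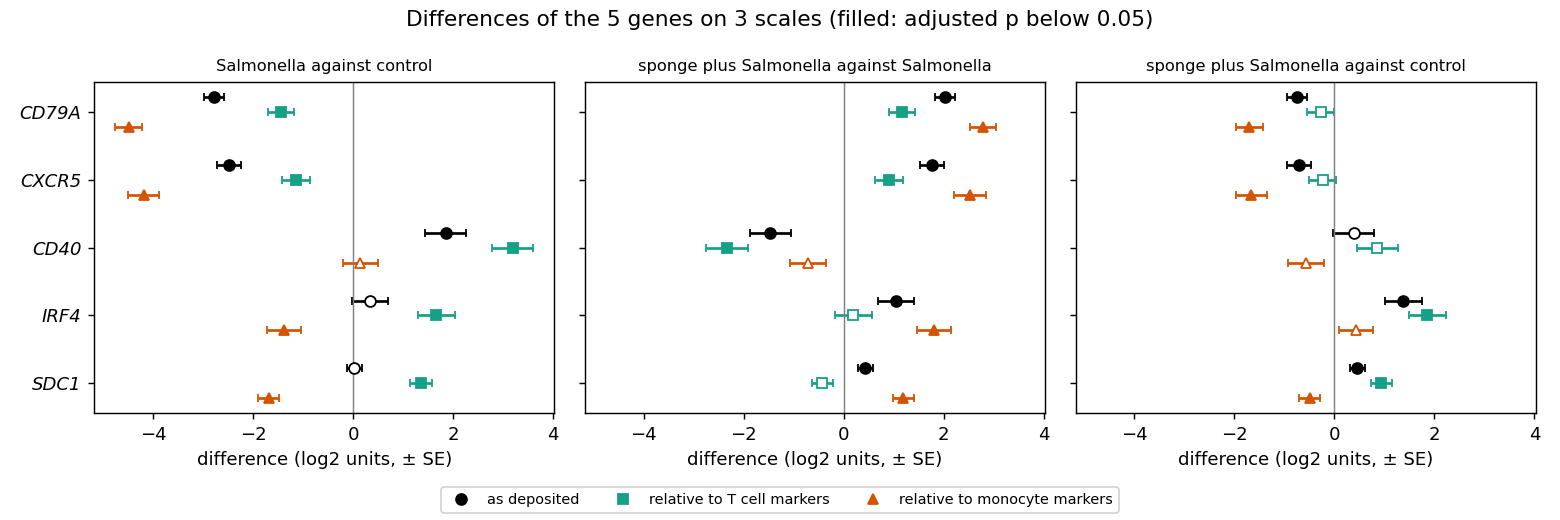
Differences of the 5 genes (log2 units, x axis, bars ± SE) in the 3 comparisons on the deposited scale (circles), relative to the mean of the T cell markers (squares) and relative to the mean of the monocyte markers (triangles). Filled symbols have an adjusted p below 0.05. CD79A and CXCR5 have the same sign on the 3 scales in each comparison, while the Salmonella rise of CD40 shrinks from 1.86 to 0.14 relative to monocyte markers.

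The sponge libraries ordered differently for CD40 than for CD79A. CD40 was at 7.66, 6.56, 5.98 and 5.64 in replicates 1 to 4, while CD79A stayed between 11.03 and 11.36. Monocyte marker means in the same libraries were 9.29, 9.37, 8.96 and 8.79, and T cell marker means were 8.34, 8.33, 8.83 and 8.93. In this group the 2 libraries with more CD40 had the higher monocyte and lower T cell marker means. The other groups showed the opposite at their extremes. Control replicate 1 had the highest CD40 of the controls (6.78) and the lowest monocyte mean (7.80), and Salmonella replicate 4 had the highest CD40 (8.58) and the lowest monocyte mean (9.78) of its group. The monocyte means of the Salmonella libraries spanned only 9.78 to 9.96. Whether CD40 followed the monocyte marker mean within groups was not tested.

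Counts of called genes in this list and those that follow stand beside the shares over all genes. These were 15.7% higher and 17.9% lower with Salmonella, and 11.9% and 13.2% between sponge and Salmonella. Between sponge and control they were 17.9% and 23.0%. Of 28 other listed genes of B cell surface and identity, 7 were measured. With Salmonella 6 were lower, 0 higher and 1 not called, with a median of -1.34 over the 7 (5 to 6 lower when a library was left out). POU2AF1, a B cell coactivator, changed by -1.89 ± 0.28 (adjusted p = 1.8e-04). TNFRSF13C, the receptor for the survival factor BAFF, changed by -1.61 ± 0.25 (adjusted p = 2.3e-04), and its Salmonella mean of 4.33 was under the background. CD180, a toll-like receptor relative on B cells, changed by -1.14 ± 0.20 (adjusted p = 6.5e-04), to a mean of 4.62.

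With the sponge, 6 of these 7 genes were higher than with Salmonella alone and 0 lower, with a median of 0.94 against -0.04 over all genes (4 to 5 of the 7 were higher when a library was left out). CR2, the complement receptor CD21, was higher by 1.84 ± 0.34 (adjusted p = 0.00181) from a Salmonella mean of 4.26, under the background. SPIB, a transcription factor of B cells and plasmacytoid dendritic cells, was higher by 1.31 ± 0.28 (adjusted p = 0.00453) from a Salmonella mean of 4.85, under the 95th percentile of the silent set, though its difference between Salmonella and control was 0.20 ± 0.28 (adjusted p = 0.628). Against control, 3 of the 7 were lower with the sponge, namely CD180 (-0.94 ± 0.20), POU2AF1 (-1.03 ± 0.28) and TNFRSF13C (-0.67 ± 0.25), and SPIB was higher (1.51 ± 0.28). The call of TNFRSF13C against control ended without any of 6 libraries (all controls and sponge replicates 1 and 2, adjusted p = 0.0572 to 0.141).

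Signalling genes downstream of the antigen receptor did not follow CD79A. Of 20 listed, 12 were measured, and with Salmonella 4 were higher and 1 lower, with a median of 0.16. PIK3AP1, an adaptor that links receptors to PI3 kinase, rose by 3.81 ± 0.47 (adjusted p = 3.4e-05) and DAPP1, another adaptor, by 3.67 ± 0.48 (adjusted p = 5.5e-05). Their control means of 4.39 and 3.58 were under the background, so these sizes are uncertain. The kinase genes LYN (1.25 ± 0.20, adjusted p = 3.6e-04) and BTK (0.79 ± 0.16, adjusted p = 0.00173) also rose. Both kinases work in monocytes too.

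Between sponge and Salmonella 2 of the 12 were higher and 2 lower, with a median of 0.13. MALT1, a protease that passes the receptor signal to NF-kB, was 1.58 ± 0.28 higher (adjusted p = 0.00143). LYN (-0.73 ± 0.20) and VAV1, an exchange factor (-0.74 ± 0.21), were lower, with adjusted p = 0.0183 and 0.0195. Each of these 2 falls ended without some libraries, sponge replicate 4 or Salmonella replicate 4 for LYN and sponge replicate 2 or Salmonella replicates 2 or 4 for VAV1 (adjusted p = 0.0544 to 0.0650). Against control, 5 of the 12 were higher with the sponge and 1 lower. PIK3AP1 was higher by 4.81 ± 0.47, DAPP1 by 4.20 ± 0.48 and MALT1 by 1.41 ± 0.28.

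Of 20 other listed genes of CD40 and BAFF signalling 6 were measured, and with Salmonella, where CD40 rose, 4 were lower and 0 higher, with a median of -1.10. CD40LG, the ligand that activated T cells display, changed by -1.57 ± 0.22 (adjusted p = 1.1e-04). TNFRSF17, the BCMA receptor that keeps plasma cells alive, changed by -2.29 ± 0.45 (adjusted p = 0.00134), and CD80, a costimulatory ligand, by -0.63 ± 0.16 (adjusted p = 0.00658). The Salmonella mean of CD80, 4.73, was under the 95th percentile of the silent set. Between sponge and Salmonella 2 of the 6 were higher and 0 lower, TNFRSF13C (0.94 ± 0.25, adjusted p = 0.0148) and CD40LG (0.67 ± 0.22, adjusted p = 0.0378). TNFRSF17 (0.69 ± 0.45, adjusted p = 0.270) and CD80 (-0.06 ± 0.16, adjusted p = 0.798) were not called there. The call of CD40LG ended without any of 6 libraries (sponge replicates 1, 3 and 4 and Salmonella replicates 2, 3 and 4, adjusted p = 0.0520 to 0.107). Against control, 5 of the 6 were lower with the sponge (3 without sponge replicate 2 or control replicates 1, 3 or 4), among them TNFRSF17 at -1.61 ± 0.45 (adjusted p = 0.0111) and CD40LG at -0.90 ± 0.22 (adjusted p = 0.00553).

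Beside CXCR5, 9 of 15 listed homing genes were measured. With Salmonella 3 were lower and 1 higher, with a median of -0.13. CCR7, which guides naive lymphocytes into lymph nodes and is also among the T cell markers, changed by -1.80 ± 0.30 (adjusted p = 4.4e-04). CCR9, a gut homing receptor, changed by -1.37 ± 0.38 (adjusted p = 0.0128) and S1PR2, a receptor that confines B cells to follicles, by -0.56 ± 0.13 (adjusted p = 0.00465). The Salmonella mean of S1PR2, 4.43, was under the background. GNA13, which encodes a G protein subunit that signals for S1PR2, rose by 2.28 ± 0.57 (adjusted p = 0.0068) from a control mean of 4.44, under the background. With the sponge, 4 were higher than with Salmonella and 0 lower (1 without sponge replicate 3 or Salmonella replicate 4). The calls of CCR7, GNA13 and ITGB1 each ended without 5 or 6 of the 8 libraries (adjusted p = 0.0541 to 0.112). The fourth, which kept its call without any single library, was GPR183, a receptor that positions activated B cells, at 1.93 ± 0.29 (adjusted p = 4.9e-04) from a Salmonella mean of 4.30.

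Among regulators of the B to plasma cell change, 12 of 22 were measured beside IRF4. With Salmonella 2 were higher and 4 lower, with a median of -0.23. BCL6, the repressor that holds B cells in the germinal centre programme and is also made by monocytes, rose by 1.68 ± 0.28 (adjusted p = 3.8e-04). SPI1, the transcription factor PU.1 of myeloid and B cells and a DNA-binding partner of IRF4, rose by 1.93 ± 0.21 (adjusted p = 1.2e-05). FOXO1, a transcription factor of resting lymphocytes, changed by -1.91 ± 0.22 (adjusted p = 1.6e-05), XBP1, which drives the secretory programme of plasma cells, by -1.04 ± 0.17 (adjusted p = 3.4e-04) and MEF2C by -1.06 ± 0.28 (adjusted p = 0.0086).

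IRF4 was not alone among these regulators in standing above control in the sponge libraries. There 5 of the 12 were higher than control and 5 lower. IKZF3, the lymphocyte factor Aiolos, was higher by 1.82 ± 0.26 (adjusted p = 1.5e-04) from a control mean of 4.17, under the background. BACH2, a repressor of plasma cell formation, was higher by 1.10 ± 0.28 (adjusted p = 0.00662). Between Salmonella and control, IKZF3 (0.24 ± 0.26) and BACH2 (-0.72 ± 0.28) were not called, with adjusted p = 0.499 and 0.0626. XBP1 stayed 0.93 ± 0.17 below control with the sponge (difference -0.93, adjusted p = 8.2e-04).

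Against Salmonella alone, 5 of the 12 regulators were higher with the sponge and 2 lower. BACH2 was higher by 1.82 ± 0.28 (adjusted p = 6.1e-04), IKZF3 by 1.58 ± 0.26 (adjusted p = 8.3e-04) and FOXO1 by 0.84 ± 0.22 (adjusted p = 0.0118). BCL6 (-0.86 ± 0.28) and SPI1 (-0.67 ± 0.21) were lower (adjusted p = 0.035 and 0.0314). Both calls rested on most libraries, since SPI1 lost its call without any of 5 and BCL6 without any of 6 of the 8 (adjusted p = 0.0505 to 0.0940).

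Plasma cell and secretory genes showed no shared direction. Of 29 listed genes beside SDC1, 15 were measured, TNFRSF17 of the BAFF system among them, and with Salmonella 2 were higher and 4 lower, with a median of -0.04. In that comparison 15.7% of all genes were called higher and 17.9% lower. CD27, a receptor of memory B cells, plasma cells and T cells, changed by -2.08 ± 0.22 (adjusted p = 9.5e-06), and SSR4, a subunit of the translocon-associated complex, by -1.25 ± 0.18 (adjusted p = 1.2e-04). SPCS3, a signal peptidase subunit, rose by 2.04 ± 0.24 (adjusted p = 2.1e-05) and PDIA4, a protein disulfide isomerase, by 1.03 ± 0.28 (adjusted p = 0.010). With the sponge 1 was higher than with Salmonella and 3 lower (1 without sponge replicate 3 or Salmonella replicate 4), with CD27 at 1.26 ± 0.22 and SPCS3 at -1.33 ± 0.24. Against control 3 were higher, 0 without control replicate 1, and 7 were lower (5 to 8 when a library was left out).

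Of 19 listed genes for other syndecans and heparan sulfate synthesis, 9 were measured, with a median of -0.29 with Salmonella. There 0 were higher, where 15.7% of all genes were, and 2 were lower, where 17.9% were. The 2 lower genes were XYLT2 (-0.87 ± 0.17, adjusted p = 0.00135) and B3GAT3 (-1.02 ± 0.22, adjusted p = 0.00288), which encode enzymes that start the heparan sulfate chain. SDC2 (-0.29 ± 0.25) and SDC4 (-0.01 ± 0.17), the measured relatives of SDC1, were not called in any comparison. The mean of 5 epithelial markers was between 4.48 and 4.62 in the 3 groups, at the level of the silent set, and the part of epithelial cells in the SDC1 values was not tested. Of these 5, CDH1 was lower with Salmonella (-0.49, adjusted p = 0.00443) and higher with the sponge than with Salmonella (0.47, adjusted p = 0.00947), and the 4 keratins were not called. With the sponge EXT1, a polymerase of the chain, was lower than with Salmonella (-1.11 ± 0.26, adjusted p = 0.00686). Of 18 listed genes of class II antigen presentation 4 were measured. With Salmonella 1 was higher and 2 lower, RFXAP (-0.79 ± 0.21) and HLA-DOA (-0.79 ± 0.23), the latter not called without Salmonella replicate 3 (adjusted p = 0.0531). CD74, the invariant chain, rose by 2.96 ± 0.36 with Salmonella (adjusted p = 3.3e-05), as CD40 did, and differed by -1.62 ± 0.36 between sponge and Salmonella (adjusted p = 0.00586).

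**Figure D4:**
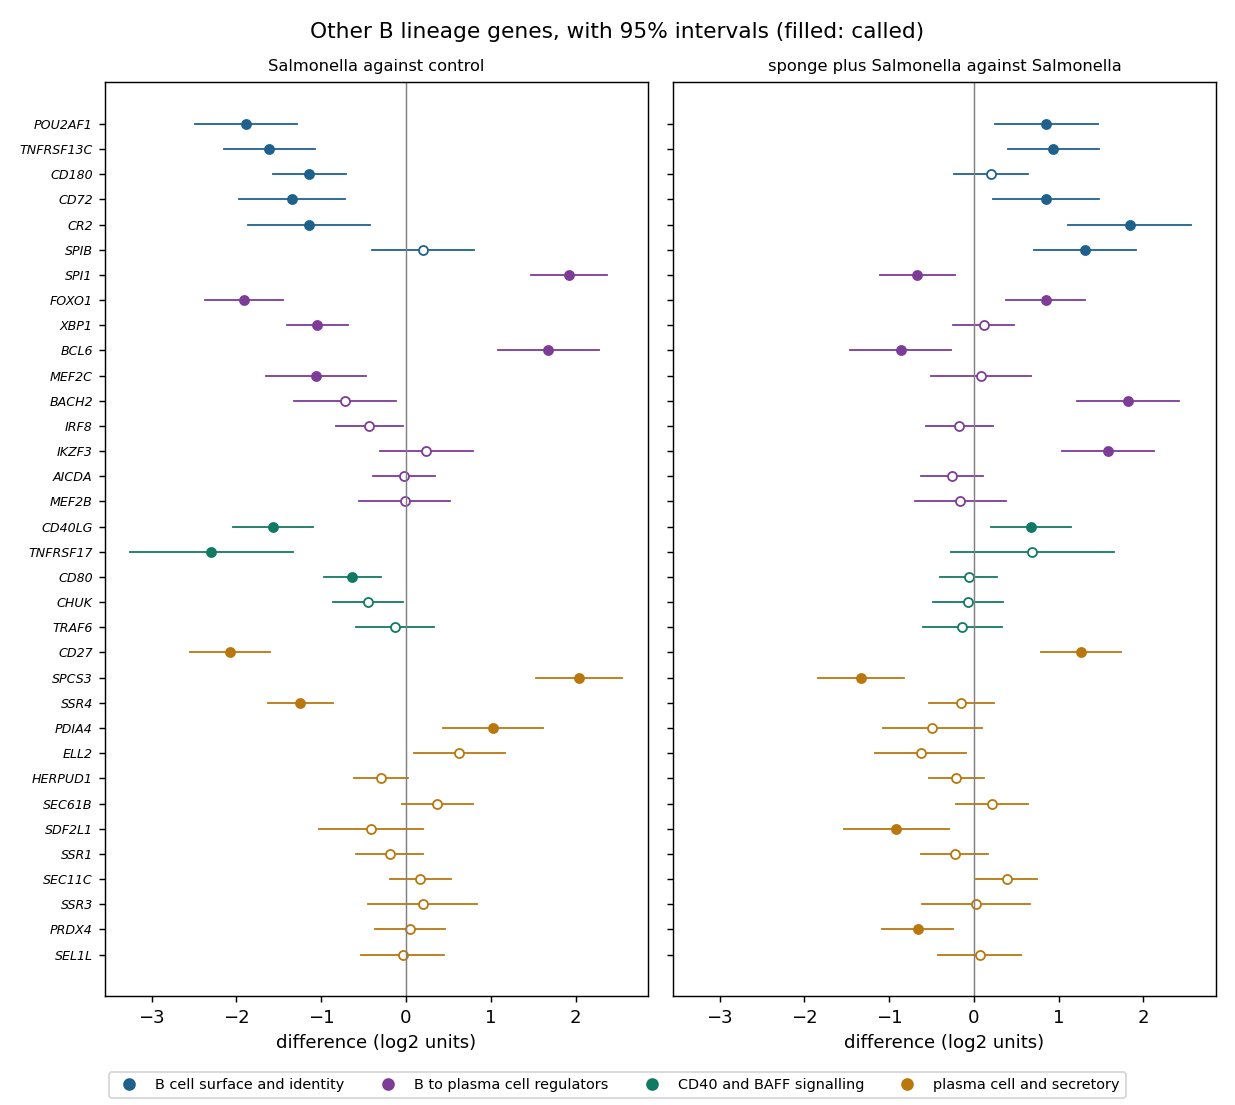
Differences (log2 units, x axis) of measured genes of 4 B lineage lists, with Salmonella against control on the left and with sponge plus Salmonella against Salmonella on the right. Lines are 95% intervals, filled points have an adjusted p below 0.05, and a gene on several lists is drawn once. BACH2 is not called on the left and is at 1.82 on the right, while TNFRSF17 and XBP1 are lower on the left and not called on the right.

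The genes whose pattern was most like each of the 5 were found from the root mean square difference over the 12 libraries, after each gene's own mean was taken away. For CD79A the closest of all genes was CXCR5, at 0.26 log2 units, where the median over all genes was 1.23. RPS6KA2, which encodes a ribosomal S6 kinase, was next at 0.32 and PMEPA1, which encodes a membrane protein, followed at 0.34. For CXCR5 the closest were PMEPA1 (0.25), CD79A (0.26) and ZNF395 (0.30). RPS6KA2 changed by -2.77 with Salmonella and by 2.12 between sponge and Salmonella, close to the -2.78 and 2.03 of CD79A. Its Salmonella mean of 3.98 was under the background.

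For CD40 the closest were RIPK2 (0.33), SRBD1 (0.38) and DYNLT1 (0.40), where the median over all genes was 1.04. RIPK2, the kinase that carries signals from the NOD sensors of bacterial cell wall, was at 9.59, 9.03, 8.06 and 8.56 in sponge replicates 1 to 4, so it too was highest in replicate 1.

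For IRF4 the closest were YEATS4 (0.17), which encodes a chromatin reader, FAM117A (0.18) and RPS15A (0.20), a ribosomal protein gene, where the median over all genes was 0.86. These genes shared the unevenness of IRF4 within groups. YEATS4 was at 5.07, 6.32, 6.80 and 5.75 in control libraries and at 7.17, 5.56, 6.10 and 5.32 with Salmonella, lowest in control replicate 1 and highest in Salmonella replicate 1 among its Salmonella libraries, as IRF4 was. RPS15A, whose reads can be shared with processed copies, was at 10.64, 11.41, 11.85 and 10.96 in control and at 12.50, 11.32, 11.75 and 10.78 with Salmonella. These genes were picked for likeness, so their likeness is a description. A high Salmonella replicate 1 was also seen, by inspection of the values, in PIK3AP1 (9.82, against 7.07 to 8.23 in the other 3), DAPP1 (9.01, against 6.33 to 7.11) and GNA13 (8.71, against 5.38 to 6.65). They were noticed for that high value, so this too is a description. In other listed genes the same library was the lowest of its group, such as BCL6 (11.21, against 12.15 to 12.25) and CD74 (8.43, against 9.35 to 10.24). How many listed genes went each way was not counted. For SDC1 the closest were ZFHX2, MSI1 and OR5D18, an olfactory receptor symbol of the silent set, each at 0.15 where the median over all genes was 0.46.

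**Figure D5:**
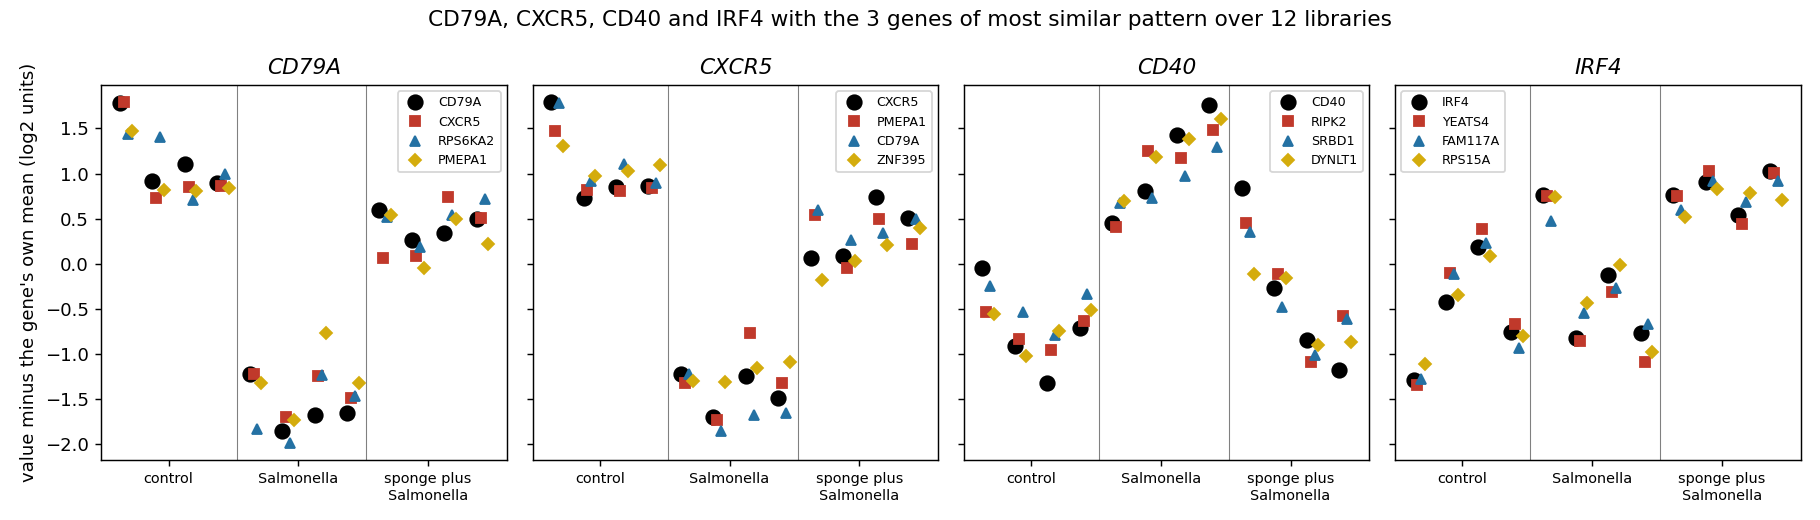
Values minus each gene's own mean over the 12 libraries (log2 units, y axis) for CD79A, CXCR5, CD40 and IRF4 (black circles) and the 3 genes of most similar pattern (coloured symbols, slightly offset). Libraries are in order of replicate number within the 3 groups. The IRF4 panel shows the same high Salmonella replicate 1 (IRF4 6.58, YEATS4 7.17) and low control replicate 1 (IRF4 4.53, YEATS4 5.07) in all 4 genes.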

How the data were processed

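The authors deposited log2 values made from their sequencing reads, 1 for each of 7480 symbols in 12 libraries. The base was not stated and was taken as 2, and sources used here do not give how reads were counted or normalized. The depth is unknown. According to the submitters' processing notes, the tools were Bowtie and R 3.4.2 and the build was Sscrofa11.1. Gene positions came from the RefSeq table of that build (5 of 5 genes matched by symbol).

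All 12 libraries entered 1 limma fit (version 3.58.1, R 4.3.3) of group means with a variance trend. A gene was called at a Benjamini-Hochberg adjusted p below 0.05 over 7480 genes, and no low value was removed. On simulated data for Salmonella against control, sponge against Salmonella and sponge against control, over 7480 genes each, the fit recovered 95.7%, 93.2% and 96.9% of changes of 2 log2 units. It recovered 77.1%, 81% and 68.3% of changes of 1, and 31.7%, 40.3% and 29.3% of changes of 0.5. False calls were 6.67%, 2.7% and 7.35% of all calls. Each simulated set held 200 changed genes and independent normal noise with each gene's own spread, without ties. The deposited values had far more called genes (1873 to 3057) and tied sponge columns, so these rates may not hold for them. The 5 genes and 15 gene lists were chosen with earlier results of these data known. From each pathway list, up to 4 called genes a direction with the smallest p were described. Alternatives changed the variance prior, scaling, filter, floor, libraries in the fit or replicate block, or left out each library. Some listed genes enter the counts and are not reported here by name.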

Additional observations from a re-analysis of the deposited data

Results flagged for a closer look

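Of the 15 sets of 4 values (5 genes in 3 groups), 1 held a library far from the other 3. CXCR5 in control replicate 1 was at 9.771, and the other controls lay between 8.71 and 8.84. Its gap to the nearest was 0.875 of the range, above the Dixon limit for 4 values, and chance passes that limit in about 1 in 20 such sets. Without this library, CXCR5 with Salmonella was still lower than control (-2.23), and its difference between sponge and control was -0.47 (adjusted p = 0.0995 by limma).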

How the results depend on the processing

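CD79A and CXCR5 kept their direction and call in Salmonella against control and in sponge against Salmonella under all 19 alternatives run for each. Centring on T cell markers ended the calls of CD79A (-0.2738) and CXCR5 (-0.2332) for sponge against control and of IRF4 for sponge against Salmonella (0.1923). It gave calls to IRF4 (1.667) and SDC1 (1.364) for Salmonella against control, and turned SDC1 to -0.4251 for sponge against Salmonella. Centring on monocyte markers ended the calls of CD40 for Salmonella against control (0.1446) and for sponge against Salmonella (-0.7127) and of IRF4 for sponge against control (0.4301). It turned IRF4 to -1.38 and SDC1 to -1.682 for Salmonella against control, and CD40 to -0.5681 and SDC1 to -0.4896 for sponge against control. These scalings move all genes: with T cell markers 6669 genes were called for Salmonella against control and 5924 for sponge against Salmonella, and with monocyte markers 7040 and 5260, and 6365 for sponge against control.

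For sponge against Salmonella, setting values under the silent mean to that mean ended the calls of CD40 (-1.473, adjusted p = 0.0537), IRF4 (1.05) and SDC1 (0.2084). Leaving the trend out of the variance prior ended those of IRF4 (1.05) and SDC1 (0.4322), and a fit of only the 2 groups ended that of SDC1 (0.4322), as did median centring (0.3977) and quantile normalization (0.3822). For sponge against control, the floor ended the calls of CXCR5 (-0.7113) and SDC1 (0.247), and median centring that of SDC1 (0.3385). Median centring turned SDC1 to -0.05922 for Salmonella against control. The cause of these changes was not tested. A filter on a mean of at least 5 gave no value for SDC1.

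Leaving out 1 library gave ranges of -0.002274 to 0.583 (IRF4) and -0.08799 to 0.1721 (SDC1, also -0.02474 without control replicate 3) for Salmonella against control. For sponge against Salmonella the ranges were -1.873 to -1.2 (CD40), 0.855 to 1.383 (IRF4) and 0.2891 to 0.5491 (SDC1). For sponge against control they were -0.8429 to -0.4674 (CXCR5), -0.01703 to 0.6555 (CD40) and 0.3501 to 0.5547 (SDC1). Counts of called genes ran from 1991 to 2419, 1325 to 2013 and 2441 to 2959. Same-numbered libraries deviated from their group means with correlations of -0.36 to 0.377, and 0 of 12 correlated best with its own number in both other groups, so the numbers were not taken as pairs. With a replicate block 2371, 1706 and 2907 genes were called, and the calls of IRF4 (1.05, adjusted p = 0.0721) and SDC1 (0.4322, adjusted p = 0.0832) for sponge against Salmonella were not made, while the other calls of the 5 genes were. Alternatives for the other described genes, and scaling on the silent mean, were chosen after seeing the data. Of 1502 values for 89 such results, 118 were no longer called and 0 changed sign. The silent level limits low genes.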
